A study of Rattus norvegicus with 9 samples.

Results

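The tropomyosin genes of the rat, Tpm1, Tpm2, Tpm3 and Tpm4, were followed through every RefSeq transcript that the 9 quantification tables list for them. These were 57 transcripts, 28 of Tpm1, 4 of Tpm2, 24 of Tpm3 and 1 of Tpm4, out of 114122 transcripts of 36856 genes. The members were taken by gene symbol, and the family was chosen with earlier results of these data known.

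The cells were H9c2(2-1), a line derived from embryonic heart tissue of the rat strain BD1X, with the genotype given as WT and the cell type as myoblast. It is 1 cell line, grown in DMEM with serum and antibiotics, so that it stands for cultured cells of that line only. There were 3 groups of 3 libraries. Control cells stayed in growth medium, ESW cells received energized structured water, and CW cells received control water, both diluted to 0.01 of the medium for 72 hours with fresh medium every 24 hours. The study set ESW against both other groups, and CW against Control was added here as the comparison of the 2 reference groups. Nothing in the labels states that libraries of one group are separate cultures. The p-values below therefore reflect spread among samples that may be technical repeats.

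Tropomyosins are coiled-coil proteins that lie end to end along actin filaments. In striated muscle they carry the troponin complex and so couple calcium to contraction, and in other cells different isoforms mark different actin filaments and set which myosins and severing proteins can bind there. In mammals each of the 4 genes makes several proteins through alternative promoters and alternative exons, so that the total of a gene and the balance of its transcripts are separate measurements. The deposited tables name transcripts by RefSeq accession without saying which protein isoform each encodes, and the accessions are used as names here.

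Libraries held 26748673 to 48574618 estimated reads, which are reads that the quantifier assigned to transcripts and, where a read matched several, divided among them. CW replicate 1 was the shallowest. The 4 genes together took 0.488% to 0.517% of the reads of a library, with 58333 to 107477 reads for Tpm1 and 10601 to 19110 for Tpm3, so counting error was small at the gene level. As a check of the label, markers of muscle were compared. Of 10 cardiac markers 3 reached 1 TPM in every library. Cardiac troponin T (Tnnt2) was at 66.6 TPM and cardiac troponin I (Tnni3) at 2.01, whereas the means of Myh6, Myh7, Nppa and Myl2 were 0.023 to 0.085 TPM. Of the skeletal muscle markers Myod1 was at 9.25 TPM and Myog at 3.29, whereas Ckm was at 0.07. The smooth muscle markers Acta2 and Tagln were at 10379 and 6204 TPM and the collagen gene Col1a1, a fibroblast marker, at 9946, all means over 9 libraries.

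Tpm2, Tpm1 and Tpm4 were all among the 67 genes with the highest mean TPM (a level corrected for transcript length and scaled to a sum of 1000000 per library), at ranks 46, 61 and 67, and Tpm3 was at rank 389. None of the 4 genes was called different between any 2 groups. Of all genes tested, 8.05% were called in ESW against Control, 8.14% in ESW against CW and 0.177% in CW against Control. With 4 members, a count of 0 is near this background. Of the 5 actins tested, the proteins that tropomyosin covers, 3 were called higher in ESW against Control, Actb, Actg1 and Acta2. Within Tpm3, the second most abundant transcript was lower in all 3 CW libraries than in all 6 others, a pattern that passed some tests and not others, as set out below. On scaled read counts, 11.7% of all transcripts tested did not overlap between CW and Control, and 17.2% between ESW and CW.

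Tpm2, best known as beta-tropomyosin of slow skeletal and smooth muscle, had the highest level of the family. Summed over its 4 transcripts it was at 2432, 2503 and 2421 TPM in Control replicates 1 to 3, at 2660, 2669 and 2565 in ESW, and at 2528, 2342 and 2460 in CW. On this TPM scale the 3 ESW libraries were above all others. The gap did not carry over to read counts. In CPM (counts per 1000000 reads of the scaled library total, not corrected for length) Tpm2 was at 1561 ± 14.6 in Control, 1589 ± 68.9 in ESW, 1529 ± 71.3 in CW (SD, n = 3 each), and the groups overlapped. The effective length, the length of a transcript after the quantifier's correction for that library, also differed between libraries. For NM_001024345.2, the main Tpm2 transcript, it was 1062, 1007 and 1031 bases in Control, 916, 1028 and 969 in ESW, and 1048, 1001 and 976 in CW. ESW replicates 1 and 3 had the shortest, but ESW replicate 2, with the highest Tpm2 level, had a longer one than Control replicate 2 and CW replicates 2 and 3. By definition, a shorter effective length raises the TPM that a given number of reads yields; its part in the TPM gap was not tested. With effective length as an offset in the edgeR fit, the log2 fold change of Tpm2 was 0.09 against Control and 0.10 against CW, compared with 0.03 and 0.06 without it, and it was not called (adjusted p = 0.225 and 0.126). Over all alternatives these adjusted p ran from 0.225 to 0.930 and from 0.126 to 0.835.

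Tpm1, alpha-tropomyosin, is the main tropomyosin of the adult heart and also makes several non-muscle isoforms. It was at 2286, 2201 and 2149 TPM in Control, 2226, 2307 and 2282 in ESW, and 2175, 2076 and 2135 in CW. The ESW libraries were all above the CW libraries, while Control overlapped with both.

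Tpm4, a gene of non-muscle cells, for which RefSeq gives the synonym Tpm4.2, was at 2137, 2031 and 2025 TPM in Control, 2063, 2077 and 2114 in ESW, and 2215, 1989 and 2036 in CW. The 3 groups overlapped, and CW held both the highest and the lowest library.

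Tpm3, which makes a slow skeletal muscle form and widely expressed cytoskeletal forms, was the lowest of the family, at 398, 377 and 376 TPM in Control, 389, 398 and 392 in ESW, and 389, 374 and 374 in CW. Its level was 5.31 to 5.49 times below that of Tpm4 in the 3 groups (ratio of means). Control replicate 1 was within the ESW range and the other Control libraries were close to CW.

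The order Tpm2, Tpm1, Tpm4, Tpm3 held in every Control and ESW library. In CW, Tpm1 and Tpm4 did not differ beyond their spread, since CW replicate 1 had more Tpm4 than Tpm1. Of the summed TPM of the family Tpm1 gave 29.8% to 31.5%, Tpm2 33.5% to 36.2%, Tpm3 5.30% to 5.51% and Tpm4 27.9% to 30.3% over the 9 libraries.

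**Figure D1:**
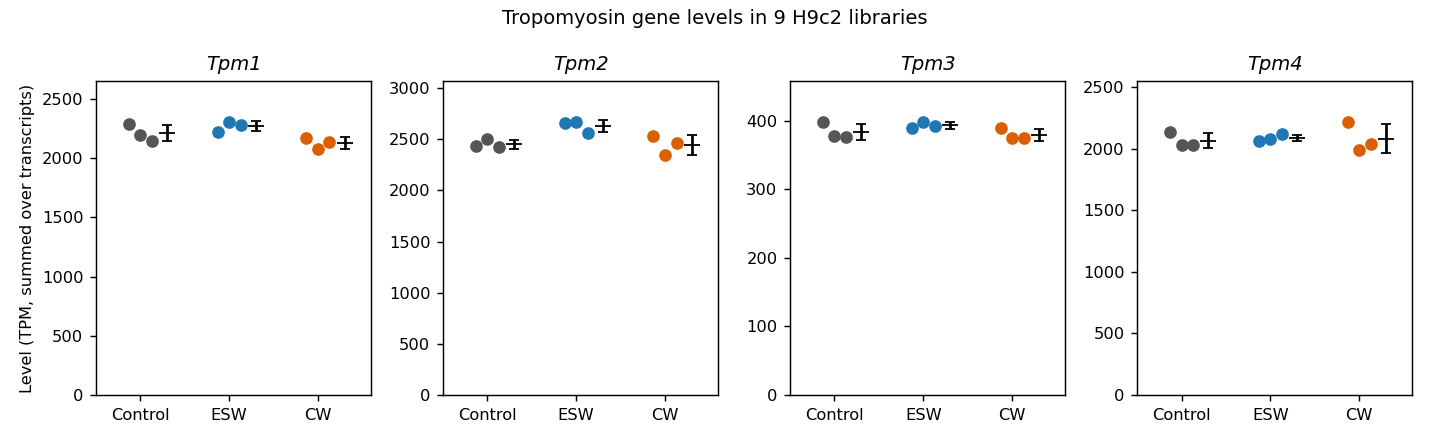
Level of each tropomyosin gene in TPM, summed over its transcripts, in the 3 Control, 3 ESW and 3 CW libraries; points are libraries and bars are the mean and SD, and every axis starts at 0. The ESW points of Tpm2 lie between 2565 and 2669 TPM, above the other 6, whereas the groups of Tpm3 and Tpm4 overlap.

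Genes were tested by the quasi-likelihood method of edgeR on read counts with Benjamini-Hochberg adjustment over 14706 genes, and a gene was called below an adjusted p of 0.05. Of all genes tested, 8.05% were called in ESW against Control, 8.14% in ESW against CW, 0.177% in CW against Control, and 9.58% in the single test over the 3 groups. Of the 4 tropomyosins 0 were called in each of these, also 0 by DESeq2 and by limma-voom, and at an unadjusted p under 0.05 the counts were 0, 1 and 1 in the 3 comparisons, where 22.8%, 23.9% and 9.87% of all genes passed. With 4 members, counts of 0 and 1 are near these backgrounds and are no result about the tropomyosins.

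In ESW against Control the log2 fold changes were 0.0028 for Tpm1 (SE 0.04), 0.03 for Tpm2 (SE 0.04), 0.0069 for Tpm3 (SE 0.03) and -0.03 for Tpm4 (SE 0.04), with edgeR adjusted p from 0.739 to 0.977. The 95% intervals of the fold were 0.951 to 1.056 for Tpm1, 0.961 to 1.078 for Tpm2, 0.956 to 1.057 for Tpm3 and 0.925 to 1.04 for Tpm4. These intervals leave room for changes of a few percent in either direction.

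In ESW against CW, Tpm1 was at 2244 ± 60.5 against 2123 ± 68.9 CPM (SD, n = 3 each) and the 3 libraries of each group did not overlap. Its log2 fold change was 0.08 (SE 0.04), with a fold interval of 1.003 to 1.114, and it did not pass adjustment (edgeR adjusted p = 0.184). In CW against Control its log2 fold change was -0.08 (SE 0.04), again without overlap and again not called (edgeR adjusted p = 0.501). Of all 14706 genes, 28.3% did not overlap in ESW against CW and 14.7% in CW against Control. Tpm2, Tpm3 and Tpm4 had log2 fold changes of 0.06, 0.04 and -0.02 in ESW against CW, and their intervals all included no change. In CPM, Tpm3 also did not overlap in ESW against CW, at 397 ± 3.53 against 387 ± 7.86 (SD, n = 3 each), while Tpm2 and Tpm4 overlapped. In CW against Control they were at -0.03, -0.03 and -0.0049.

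**Figure D2:**
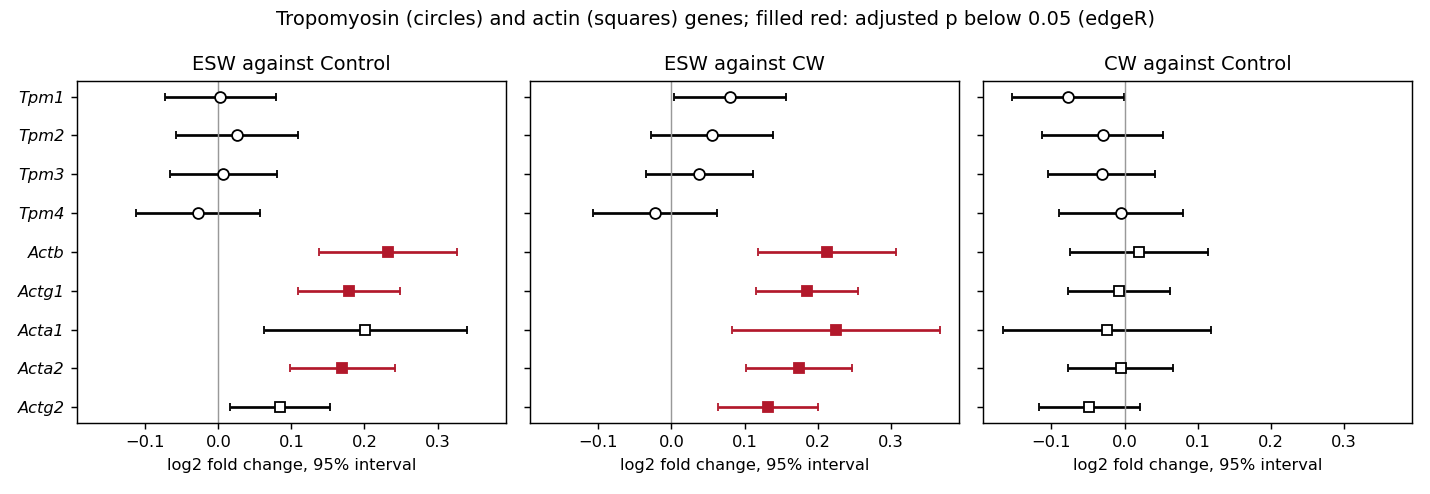
Log2 fold change with its 95% interval for the 4 tropomyosin genes (circles) and 5 actin genes (squares) in 3 comparisons, from edgeR; filled red symbols have an adjusted p below 0.05. All tropomyosin symbols are open and lie between -0.08 and 0.08, while 3 actins in ESW against Control and 5 in ESW against CW are filled.

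At the transcript level, the reads of each gene were divided by estimate among its RefSeq transcripts. Of the 57 transcripts, 20 were listed at 0 in all 9 libraries, 18 were above 0 in all 9, and 19 were at 0 in some. Of the 28 transcripts of Tpm1, 12 were at 0 throughout. Only 6 transcripts held at least 5% of the TPM of their gene. Curated records (NM) made up 19 of the 57 and predicted ones (XM) 38, and 5 of the 6 main transcripts were curated. In CPM, 15.1% of 38609 transcripts tested did not overlap in ESW against Control, 17.2% in ESW against CW and 11.7% in CW against Control. No such background was formed for shares.

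For Tpm1 the main transcript was NM_001034069.1, 1740 bases long, at 1827, 1746 and 1710 TPM in Control, 1784, 1857 and 1842 in ESW, and 1707, 1643 and 1679 in CW. Its share of the Tpm1 total was 79.6% ± 0.284 in Control, 80.4% ± 0.307 in ESW, 78.7% ± 0.334 in CW (SD, n = 3 each). On these TPM shares no group overlapped with another, and the order was ESW, Control, CW. On shares of estimated reads CW was still lowest, at 79.0% ± 0.311, but Control and ESW overlapped, with 80.44% in Control replicate 1 and 80.36% in ESW replicate 1.

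NM_001034071.1, of the same length of 1740 bases, came second among Tpm1 transcripts. It was at 269, 267 and 261 TPM in Control, 267, 270 and 286 in ESW, and 235, 244 and 256 in CW, with all CW libraries below all others. As a share of Tpm1 it was 12.02% ± 0.207, 12.1% ± 0.422 and 11.5% ± 0.640 in Control, ESW and CW (SD, n = 3 each), and the shares overlapped. The remaining Tpm1 transcripts together held 6.73% to 10.7% of the gene, led by NM_001301342.1 at 62.9 to 87.5 TPM. Their summed share was 6.73% to 7.90% in ESW, 8.25% to 8.53% in Control and 9.11% to 10.7% in CW.

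For Tpm2, NM_001024345.2 held 93.5% ± 0.402 of the gene in Control, 94.4% ± 0.325 in ESW, 93.4% ± 0.145 in CW (SD, n = 3 each). The ESW shares, 94.7%, 94.1% and 94.4%, were all above those of the other 6 libraries, of which the highest was 93.9%. XM_008763680.2, the second Tpm2 transcript, was at 94.9 to 125 TPM. Tpm4 has 1 transcript in these tables, NM_012678.2, so no share could be formed.

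In Tpm3 the second transcript held a larger share of its gene than in Tpm1 or Tpm2. NM_173111.2, 1770 bases long, was at 233, 214 and 222 TPM in Control, 222, 230 and 226 in ESW, and 250, 230 and 225 in CW, and the groups overlapped. XM_063281200.1, 1808 bases long, was at 151, 148 and 141 TPM in Control, 154, 155 and 152 in ESW, and 127, 128 and 135 in CW. All 3 CW libraries were below all 6 others. The ratio of the second to the first transcript was 0.659 ± 0.0294 in Control, 0.678 ± 0.0132 in ESW, 0.556 ± 0.0463 in CW (SD, n = 3 each), with the lowest value, 0.51, in CW replicate 1. The remaining 22 Tpm3 transcripts held 3.13% to 4.28% of the gene, and none of them exceeded 12.4 TPM in any library.

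**Figure D3:**
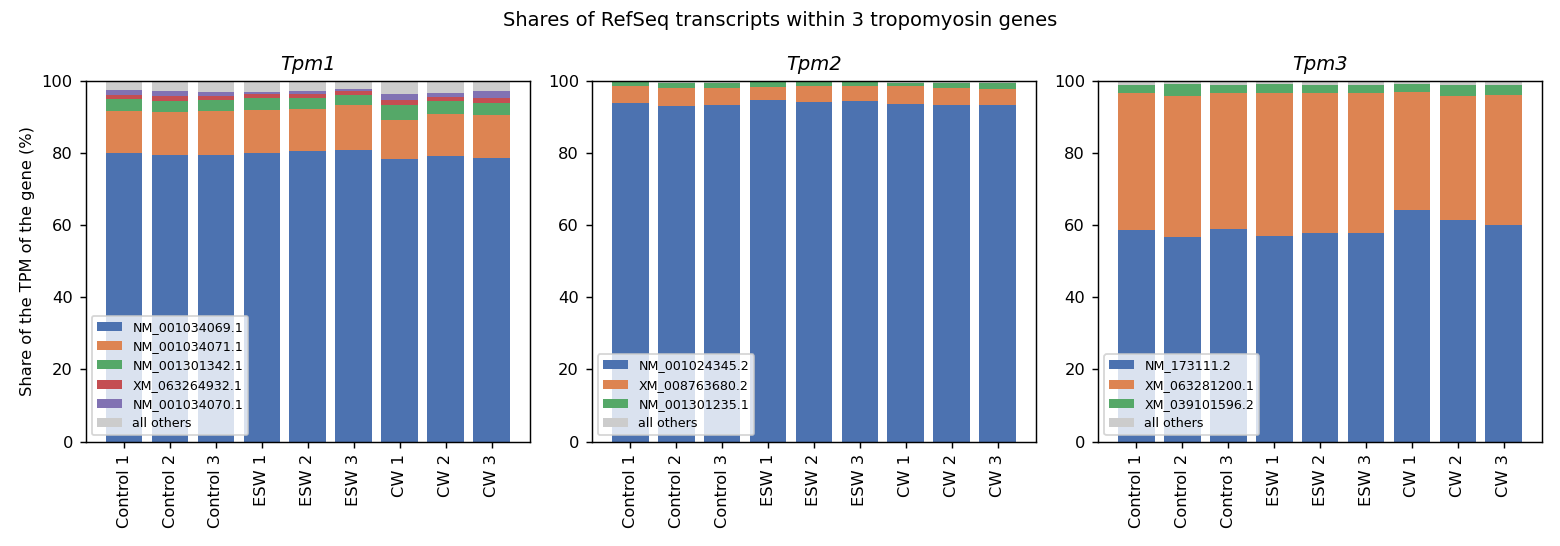
Share of the TPM of Tpm1, Tpm2 and Tpm3 held by each transcript with a mean share of at least 1%, in each of the 9 libraries, with all other transcripts in grey. The boundary in the Tpm3 panel is higher in CW, where NM_173111.2 holds 60.0% to 64.2%, than in the Control and ESW libraries, where it holds 56.7% to 59.0%.

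**Figure D4:**
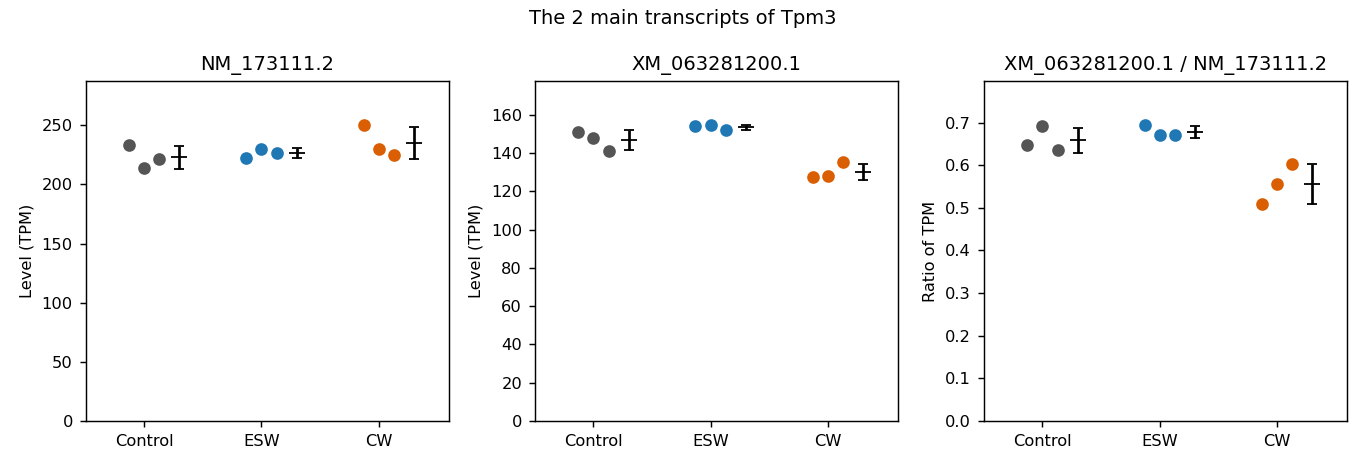
Levels in TPM of the 2 main Tpm3 transcripts and the ratio of the second to the first, by library; points are libraries and bars are mean and SD. XM_063281200.1 lies at 127 to 135 TPM in CW and at 141 to 155 TPM in Control and ESW.

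The transcripts were tested one by one with the same edgeR test over 38609 transcripts, of which 29 were tropomyosin transcripts (14 of Tpm1, 4 of Tpm2, 10 of Tpm3, 1 of Tpm4). Of all transcripts, 0.0233% were called in ESW against Control, 0% in ESW against CW and 0% in CW against Control. Tropomyosin transcripts had 0 calls in each. At an unadjusted p under 0.05 they had 1, 7 and 4 of 29, where 8.42%, 9.9% and 4.98% of all transcripts passed. Over all transcripts tested, the spread between libraries was far larger than over genes, with a common coefficient of variation of 87% against 4.84%. The same test recovered few of the changes planted in simulated transcript counts. The common value does not describe the main tropomyosin transcripts. In ESW against Control the SE of their log2 fold changes was 0.038 to 0.044, against 0.035 to 0.040 for the tropomyosin genes. Whether the simulated result holds for these transcripts was not tested. With so few calls among all transcripts, the counts of 0 carry little weight.

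DESeq2, run on the same transcript counts as an alternative, called 5%, 5.74% and 1.93% of all transcripts in the 3 comparisons. It called 1 tropomyosin transcript of 29 in ESW against Control, 6 in ESW against CW and 2 in CW against Control. Set against that background, 1 of 29 was close to it and 6 and 2 of 29 were above it. The counts of 6 and 2 each include XM_039101595.2 of Tpm3, which lay near the floor. It had 0, 0 and 2.7 estimated reads in CW, and at most 31.9 reads and 0.673 TPM in any library. DESeq2 gave no p-value for XM_063281197.1 of Tpm3, which is counted among the 29. Transcripts of a gene share reads, so the 29 are not independent, and only those that passed the expression filter are counted.

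XM_063281200.1 of Tpm3 had the smallest p among the named transcripts. It was higher in ESW than in CW by a log2 fold change of 0.25 (SE 0.04; fold interval 1.113 to 1.272), with an adjusted p of 0.112 by edgeR and 4.2e-06 by DESeq2; over all alternatives the adjusted p ran from 4.2e-06 to 0.344. In CW against Control its log2 fold change was -0.20 (SE 0.04; fold interval 0.812 to 0.928), with an adjusted p of 0.527 by edgeR and a range of 0.00136 to 1 over the alternatives, the lowest from DESeq2. ESW against Control gave 0.05 (SE 0.04), with a fold interval of 0.966 to 1.104. CW entered both comparisons in which this transcript stood apart, so they are not independent of each other.

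The 2 main Tpm1 transcripts were also higher in ESW than in CW, NM_001034069.1 by 0.13 on the log2 scale (SE 0.04; edgeR adjusted p = 0.310) and NM_001034071.1 by 0.17 (SE 0.04; edgeR adjusted p = 0.246). Both were called by DESeq2 and by no other alternative, with adjusted p over the alternatives of 0.0335 to 0.585 and 0.00624 to 0.540. The main Tpm2 transcript had a log2 fold change of 0.09 (SE 0.04), NM_173111.2 of Tpm3 -0.05 (SE 0.04) and NM_012678.2 of Tpm4 -0.0081 (SE 0.04), and these 3 were not called by any tool.

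Shares within a gene were put to 4 tests, 2 planned and 2 added after the data had been seen. The first was diffSpliceDGE of edgeR over 32735 transcripts, which called 0.0733%, 0.0825% and 0.101% of them in ESW against Control, in ESW against CW and in CW against Control, and 0 tropomyosin transcripts in each (0, 2 and 0 at an unadjusted p under 0.05, where 3.86%, 4.12% and 3.61% of all passed). The second, limma diffSplice on voom values, called 0.128% in ESW against Control, 0.422% in ESW against CW, and 0.101% in the comparison of CW with Control. Among the tropomyosins it called 1 in each of the first 2, XM_006243390.5 of Tpm1 in ESW against Control and XM_063281200.1 of Tpm3 in ESW against CW (limma adjusted p = 0.0104). Between CW and Control it called 0, and XM_063281200.1 had a limma adjusted p of 0.0728. A further test was limma on log ratios of TPM over 20477 transcripts. It called 0.044% of them in ESW against Control, 0.0342% in ESW against CW and 0.0488% in CW against Control. Of the 5 main transcripts it called 0 in each comparison, and at these rates 0 of 5 is no result about them. By this test XM_063281200.1 had an adjusted p of 0.500 in ESW against CW. Over all alternatives, that adjusted p ran from 0.0104 to 1. On simulated shares diffSpliceDGE and the ratio test found almost none of the planted changes at the spread of these libraries.

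The last was an exact permutation test over the 3 groups for the share of each of the 5 main transcripts, 2-sided by its use of squared differences, in which the smallest p that the 1680 groupings can give is 0.0036. It gave an unadjusted p of 0.0036 for NM_001034069.1, 0.0107 for XM_063281200.1, 0.0179 for NM_173111.2, 0.0357 for NM_001024345.2 and 0.3714 for NM_001034071.1. Shares within a gene sum to 100%, so the p of the Tpm3 pair describe nearly one and the same shift. XM_063281200.1 held 38.3% ± 0.864 of Tpm3 in Control, 39.1% ± 0.454 in ESW, 34.4% ± 1.72 in CW (SD, n = 3 each), a difference of 4.71 percentage points between ESW and CW. For NM_001034069.1 of Tpm1 the same difference was 1.70 points. Whether any share changed thus depended on the test, and no transcript passed all 4.

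Of the minor Tpm1 transcripts, 3 are shown, a choice made after their values in the 3 groups were seen. NM_001034070.1, as long as the 2 main Tpm1 transcripts at 1740 bases, was at 31.7, 32.2 and 20.9 TPM in Control, 12.9, 19.0 and 10.4 in ESW, and 35.7, 21.9 and 39.5 in CW. All 3 ESW libraries were below all 6 others. Of all transcripts tested, 15.1% did not overlap in ESW against Control and 17.2% in ESW against CW. Its log2 fold change was -1.03 in ESW against Control and -1.20 in ESW against CW (SE 0.32 each), not called by edgeR (adjusted p = 0.386 and 0.266) and called by DESeq2 in both.

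XM_006243390.5 had 1076, 633 and 0 estimated reads in Control, 739, 1599 and 959 in ESW, and 768, 0 and 0 in CW. XM_063264926.1 had 339, 984 and 1123 in Control, 340, 684 and 0 in ESW, and 752, 1215 and 1459 in CW. In each of the 4 libraries where one of them was at 0 the other had 959 reads or more, so that their sum stayed between 959 and 2283. Reads that match several transcripts are divided by estimate, and no measure of that division's error was used here; its part in these values was not tested.

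**Figure D5:**
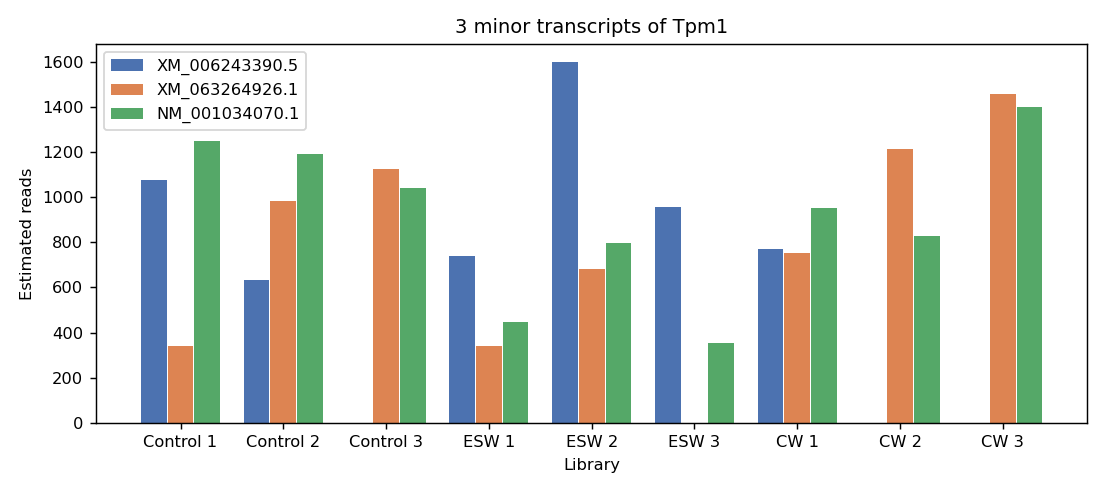
Estimated reads of 3 minor Tpm1 transcripts in each library, as bars from 0. XM_006243390.5 is at 0 in Control replicate 3 and CW replicates 2 and 3, XM_063264926.1 is at 0 in ESW replicate 3, and NM_001034070.1 is above 0 in all 9.

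The proteins that share the thin filament with tropomyosin were counted by list in the gene test, against the background of 8.05%, 8.14% and 0.177% given above. Among actins, 3 of 5 tested genes were higher in ESW than in Control and 5 of 5 higher than in CW, with 0 in CW against Control. Median log2 fold changes of the list were 0.18, 0.19 and -0.0073, where those of all genes were -0.0097, -0.0018 and -0.0004. Actb, the cytoplasmic beta-actin, was at 6478 ± 224 CPM in Control, 7610 ± 603 in ESW, 6568 ± 151 in CW (SD, n = 3 each). Its log2 fold change was 0.23 against Control (edgeR adjusted p = 0.00388) and 0.21 against CW (edgeR adjusted p = 0.00811). Acta2, smooth muscle alpha-actin, was higher by 0.17 in both. Actg1, the cytoplasmic gamma-actin, was higher by 0.18 and 0.19. Actg2, enteric gamma-actin, and Acta1, skeletal alpha-actin, were called in ESW against CW, at 0.13 and 0.23, and not in ESW against Control. Actins share long stretches of sequence, so the split of reads among them is less certain than their sum, which was 33093 to 33670 TPM in ESW, 28476 to 30019 in Control and 28583 to 30211 in CW. The count in ESW against CW was 3 without CW replicate 2. It was 4 with the 1 CPM filter, effective length offsets, the replicate block, limma-voom or only the 2 groups in the fit. Without Control replicate 2 or 3, any single ESW replicate, or CW replicate 1 or 3, it was also 4. In ESW against Control the count was 4 with DESeq2, with no filter and without ESW replicate 3. The difference between actins and tropomyosins was not itself tested.

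Of the 15 other thin filament partners 4 were higher and 1 lower in ESW than in Control, 7 were higher than in CW, and 0 differed between CW and Control. Those with the smallest p in the first were Tagln2, a transgelin, lower by a log2 fold change of -0.15, and the higher genes Smtn (smoothelin, 0.18), Actn4 (the crosslinker alpha-actinin 4, 0.14) and Fhl1 (a LIM protein, 0.14). In the second they were Fhl1 (0.18), the calponins Cnn1 (0.17) and Cnn2 (0.13), and Actn4 (0.15). Cald1, caldesmon, which binds tropomyosin and actin in smooth muscle and non-muscle cells, had a log2 fold change of 0.02 against Control and 0.10 against CW and was not called. With offsets for effective length the count of higher genes fell to 0 in ESW against Control and to 4 in ESW against CW; without ESW replicate 3 it was 0 and 1. DESeq2 raised it to 7 and limma-voom to 5 in ESW against Control, and fitting with no filter raised it to 8 in ESW against CW. Both DESeq2 and the fit with no filter called 2 lower in CW against Control. The count of higher genes was also 0 against Control without Control replicate 2 and 1 without Control replicate 3, and 3 and 1 against CW without ESW replicate 2 and CW replicate 2.

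Tropomodulins, which cap the pointed end of the filament, and leiomodins were counted together, with 0 of 6 called in every comparison. Tmod3, the widely expressed tropomodulin, was at 66.2 ± 1.62, 63.2 ± 0.350 and 65.1 ± 1.68 CPM in Control, ESW and CW (SD, n = 3 each). Troponins had 0 of 7 called. Their summed level was 314 to 355 TPM in all libraries, of which Tnnc1, the calcium-binding subunit of slow and cardiac muscle, gave 210 to 247. Myosin II genes had 0 of 8 called against Control and 3 of 8 higher in ESW than in CW: Myh11, the smooth muscle heavy chain (0.23), the light chain Myl9 (0.14) and the light chain kinase Mylk (0.15). Among 10 genes of formins and the Arp2/3 complex, which nucleate filaments, Arpc3 alone was called, lower in ESW by -0.15 against Control and -0.13 against CW. Of the 4 genes of the serum response factor axis, which drives many actin and muscle genes, Mrtfa was higher in ESW than in Control by 0.16, and 0 were called in the other comparisons.

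The regulators of tropomyosin and muscle splicing, RNA-binding proteins that decide which exons a transcript keeps, had 19 tested members. In ESW against Control 1 was higher, Rbpms (0.22), and 2 were lower, Srsf3 (-0.16) and Ptbp2 (-0.37). In ESW against CW Qki was higher (0.18) and Ptbp2 lower (-0.46). In CW against Control Qki and Mbnl2 were lower, by -0.25 and -0.21 on the log2 scale (edgeR adjusted p = 0.0236 and 0.0315). Qki was at 267 ± 15.4 CPM in Control, 253 ± 5.97 in ESW, 224 ± 11.2 in CW (SD, n = 3 each), with CW lowest in all 3 libraries. Qki and XM_063281200.1 were both lowest in CW, but Qki was lower in ESW than in Control by its mean while the transcript was at 147.5 CPM in Control and 152.3 in ESW; a part of Qki in the Tpm3 shares was not tested. Both calls in CW against Control were lost with effective length offsets, with only the 2 groups in the fit, and without Control replicate 1, CW replicate 2 or CW replicate 3, and 1 remained in the count without Control replicate 2, ESW replicate 2, ESW replicate 3 or CW replicate 1. The lower call in ESW against CW was lost without ESW replicate 3 or CW replicate 2. The higher call there, Qki, was lost with effective length offsets and without ESW replicate 2, ESW replicate 3, CW replicate 2 or CW replicate 3, and the count was 3 with DESeq2 and without Control replicate 1, and 2 with no filter or without ESW replicate 1 or CW replicate 1. In ESW against Control the higher call was lost with effective length offsets and without Control replicate 3 or ESW replicate 3, and rose to 3 with DESeq2 and to 2 with DESeq2 size factors, with no filter, and without Control replicate 1 or CW replicate 1. The 2 lower calls were lost without Control replicate 2 or ESW replicate 3, fell to 1 with effective length offsets and without Control replicate 3 or ESW replicate 2, and became 3 with DESeq2, the 1 CPM filter, or without Control replicate 1.

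Ptbp1, the polypyrimidine tract protein that represses muscle exons, was at 460 ± 3.08, 491 ± 15.4 and 463 ± 4.48 CPM in Control, ESW and CW (SD, n = 3 each), with log2 fold changes of 0.09 and 0.08 for ESW against Control and CW that were not called. Mbnl1, a muscleblind protein, was at 175 ± 6.72, 175 ± 6.81 and 160 ± 1.95 CPM and was not called (edgeR adjusted p = 0.0633 in ESW against CW). Rbfox2 was at 209 ± 4.001, 210 ± 3.23 and 211 ± 2.13 CPM.

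Among the marker lists, calls in the ESW comparisons were mostly in those of fibroblasts and smooth muscle. Fibroblast markers had 3 of 6 higher in ESW than in Control and 4 of 6 higher than in CW, led by Col1a1 (0.29 and 0.24) with Col1a2, Col3a1 and, against CW, Thy1, and their summed level was 28467 to 30958 TPM in ESW against 23938 to 26925 in the other 6 libraries. Smooth muscle markers had 2 of 6 and 4 of 6 higher, Acta2 and Smtn and, against CW, also Cnn1 and Myh11, all of which stand in the lists above. Of the skeletal muscle markers Myh1 alone was higher, by 0.63 and 0.51 on the log2 scale. Cardiac markers had 0 of 4 called, and the summed level was at most 0.496 TPM for endothelial and 1.82 TPM for blood markers. Epithelial markers, nearly all Krt8, summed to 54.6 to 57.6 TPM in CW against 44.6 to 52.7 in the other 6 libraries, and the 1 member tested was not called. CW is also the group in which the Tpm3 transcript shares stood apart, and the part of Krt8 in that was not tested. The part of these lists in the actin result was not tested. In such bulk libraries, a change in the share of cells of one kind and a change in RNA per cell cannot be told apart.

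The genes closest to each tropomyosin in their course over the 9 libraries were found among 8869 genes by the root mean square distance between standardised log2 CPM values, where 0 is an identical course. For Tpm1 they were Xpot (0.189), Ppp1r2 (0.264) and Arl5a (0.268). Tpm3, at 0.316 from Tpm1, was nearly as close, whereas Tpm2 and Tpm4 lay at 0.691 and 1.063 from it. For Tpm2 the closest included Nars1 (0.245) and Rab8a (0.374). The closest were, for Tpm3, Wls (0.230), Hif1a (0.241) and Eif4enif1 (0.254), and for Tpm4 Fmnl2 (0.302), Lrif1 (0.311) and Hirip3 (0.325). The median distance to all genes was 1.232 to 1.324. These distances describe 9 libraries that share their depth and scaling, and are given without a test.

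The start regions of both families were also searched for the CArG box, the sequence bound by serum response factor. RefSeq windows of the assembly GRCr8, from 250 bases before to 50 after a start, were available for all 4 tropomyosin genes (6 windows, 3 of them of Tpm3) and for 5 actins, while Actb has no window. A full CArG box, read on both strands, was in 0 of 6 tropomyosin windows, in 3 of 5 actin windows and in 1.64% of all 33469 windows. The 3 actins with a full box were Actg1, Acta1 and Actc1. Acta2 had matches of 9 letters alone and Actg2 had none, and both were called in ESW against CW. Actc1, with a full box, was at a mean of 0.226 TPM and below the filter of the gene test. The part of these matches in the actin result was not tested. A match in 9 of its 10 letters was in 3 of 6, 4 of 5 and 21.3%. The MCAT motif CATTCC, on either strand, was in 1 of 6, the Tpm1 window, and in 14.19% of all. The motif TATAAA, on the gene's strand, was in 0 of 6 and in 8.8%. The following stretches, 5′ to 3′ on the strand of the gene, show both Tpm1 matches of 9 letters beside the full box of Actg1, with the 10 letters in capitals; each Tpm1 match differs from the box in 1 letter.
Tpm1, chr8:76543581-76543630, minus strand, 195 to 186 bases before the start: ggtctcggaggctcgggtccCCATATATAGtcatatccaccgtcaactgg
Tpm1, chr8:76543441-76543490, minus strand, 55 to 46 bases before the start: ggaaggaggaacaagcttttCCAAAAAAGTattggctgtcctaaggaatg
Actg1, chr10:106121012-106121061, minus strand, 90 to 81 bases before the start: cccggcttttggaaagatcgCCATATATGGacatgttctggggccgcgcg
A match is a description of letters, and whether any factor binds there was not measured in these libraries.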

How the data were processed

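Per the labels' protocols, total RNA (RNeasy Plus Mini) was read on an Illumina NovaSeq X Plus. Salmon 1.10.3 and DESeq2, the latter without a version, are named in the submitters' processing notes. The deposited tables give, per the file headers, the estimated count of reads and the TPM of each transcript, with its length and effective length in bases. Fractions occur among the deposited estimated counts, since Salmon splits a read that matches several transcripts. The deposited TPM sum to 1000000 per library. The annotation release, the bias options and the use of strand are not given in the sources used here.

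Transcripts were matched to symbols by versioned accession in a RefSeq table of GRCr8. Estimated counts were summed per gene, or kept per transcript, and rounded to whole numbers. Tests were run in R 4.3.3 (edgeR 4.0.16, TMM scaling, filterByExpr) with all 9 libraries in 1 model with 6 residual degrees of freedom. Adjusted p-values are Benjamini-Hochberg values over all features tested, and calls are below 0.05. Levels of the family are in TPM, and CPM are counts per 1000000 TMM-scaled reads. Intervals cover 95%. Alternatives were DESeq2 1.42.0, limma-voom (limma 3.58.1), DESeq2 size factors, no filter, a filter of 1 CPM in 3 libraries, effective length offsets, a replicate block, fits to 2 groups, shares of reads in place of TPM, and each library left out in turn. The limma test of log ratios, with 0.1 TPM added to each value, and the permutation test of shares were added after seeing the data. Scripts were tested on simulated counts.

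The members and lists were chosen with earlier results of these data known. Values in every library are given for the 4 genes and for transcripts with a mean share of at least 5%. Of each list, up to 4 called genes with the smallest p per comparison are named, with Ptbp1, Mbnl1, Rbpms, Rbfox2, Tmod3, Cald1, Actb and Acta2 whatever their result. One result is not reported here.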

Additional observations from a re-analysis of the deposited data

How the results depend on the processing

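The counts of called tropomyosin genes were 0 under every alternative run, in 67 recounts. Counts of called transcripts were 0 in the 3 comparisons (ESW against Control, ESW with CW, and CW with Control), and became 1, 6 and 2 with DESeq2 (NM_001034070.1 in the first; XM_063281200.1 and XM_039101595.2 in the last). Counts of changed shares were 0, and became 1 in ESW against Control and 1 in ESW against CW with limma-voom. Without CW replicate 1 they were 1 in ESW against CW and 1 in CW against Control (XM_006243390.5 in both), so leaving out single libraries gave 0 to 1. XM_006243390.5 had 0 reads in CW replicates 2 and 3, the CW libraries left in that fit, and in Control replicate 3. The share of all transcripts called in that fit is not given here, so these counts are no result about the tropomyosins. The cause of these differences was not tested.

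Of 492 log2 fold changes recomputed, 26 changed sign, and of 240 changes in share 5 did. None of these was called under either setting. With the filter of 1 CPM in 3 libraries, ESW against Control gave -0.0076 for Tpm1, -0.0034 for Tpm3 and -0.0016 for NM_173111.2. With effective length offsets Tpm4 gave 0.0039 and 0.00070 in ESW against Control and against CW, and 0.0032 in CW against Control, and NM_012678.2 gave 0.0134 and 0.0184 in the first 2. With limma-voom NM_012678.2 gave 0.01003 in ESW against CW and the share of NM_001034071.1 gave -0.0116 in ESW against Control. With single libraries left out, the ranges in ESW against Control were -0.0182 to 0.0204 for Tpm1, -0.0101 to 0.0465 for Tpm2, -0.0032 to 0.0187 for Tpm3, -0.0372 to 0.010 for NM_012678.2, -0.0224 to 0.0362 for NM_173111.2, -0.0169 to 0.0372 for the share of NM_001034071.1 and -0.0318 to 0.0044 for the share of NM_173111.2. In ESW against CW they were -0.0576 to 0.0264 for Tpm4 and -0.0399 to 0.0410 for NM_012678.2. In CW against Control they were -0.0648 to 0.0028 for Tpm2, -0.0538 to 0.0302 for Tpm4, -0.0610 to 0.0196 for NM_012678.2 and -0.0070 to 0.0031 for the share of NM_001024345.2.

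The exact permutation p of shares ran over leave-outs and shares of reads from 0.0036 to 0.0107 for NM_001034069.1, 0.0107 to 0.0464 for XM_063281200.1, 0.0179 to 0.0714 for NM_173111.2 and 0.0107 to 0.075 for NM_001024345.2. Same-numbered libraries did not deviate together (r from -0.118 to 0.0402 over 9 pairs), and 1 library of 9 correlated best with its own number, so the numbers were not taken as pairs. With the replicate block, 0 tropomyosin genes, 0 transcripts and 0 shares were called. The gene test rested on at least 10601 reads per gene and library. The error of dividing shared reads among transcripts was not measured.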
